A study of Homo sapiens with 12 samples.

Results

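The H/ACA small nucleolar RNAs and the Cajal body RNAs were taken as every transcript cluster row of the array whose platform annotation holds exactly 1 gene symbol and whose symbol starts with SNORA or SCARNA. This rule found 92 rows with 85 symbols (71 SNORA rows and 21 SCARNA rows) among 67528 transcript cluster rows. Another 39 rows held such a symbol together with further symbols and were not counted as members. The measurements came from 12 arrays of Hep3B and Huh7, both established human liver cancer lines, in 4 groups of 3 arrays. The groups were Hep3B with negative control RNA, Hep3B with siRNA, Huh7 with negative control RNA and Huh7 with siRNA, all harvested 48 h after transfection. The labels give neither the siRNA sequence nor the number of different siRNAs used, and nothing in them tells separate cultures from repeated arrays of 1 culture, so the p-values cover the variation among arrays, which may be technical. The series title names a long non-coding RNA as its subject; its own level is not analysed here.

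H/ACA small nucleolar RNAs fold into hairpins that pair with a target RNA and, together with the proteins dyskerin, NHP2, NOP10 and GAR1, convert chosen uridines to pseudouridine, mostly in ribosomal RNA. The SCARNA genes encode guides that gather in Cajal bodies and direct the modification of spliceosomal RNAs. Some are of the H/ACA type, some of the C/D type, which guides ribose methylation, and some carry both kinds of box. In human cells most of these RNAs are cut out of introns of host genes, after the host transcript has been spliced and the intron lariat opened. A row of the array reads RNA that matches its probes, and the deposited values do not separate the mature guide from unspliced host RNA.

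All values below are normalized log2 values, in which a difference of 1 is a doubling. A row was taken as above background when its mean in at least 1 group exceeded 5.50, the highest mean of the 23 background rows of the array. Of the members 42 were above background (31 SNORA and 11 SCARNA rows), and 47 of the 92 had all 12 arrays below that level. Among all rows 25.4% were above background. A row was called when the limma fit over all 12 arrays gave it an adjusted p under 0.05 over all 67528 rows. The 7 SNORA38 rows held only 2 distinct profiles, so the members hold 87 distinct profiles. Because a level depends on a row's own probes, the ranking of members by mean serves only to pick rows and is no comparison of amounts of RNA. Of 11 listed liver markers 9 were measured, and 8 of them were above background in all 4 groups. The group mean of APOA1 exceeded that level only in Hep3B control, at 5.52, where its arrays ran from 5.36 to 5.66. In Hep3B siRNA its mean was 5.26 and its highest array 5.62. Against these, 1 of 5 measured fibroblast markers (LUM), 1 of 5 blood markers (CD68, which is not limited to blood cells) and 0 of 4 endothelial markers exceeded it in any group.

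In Huh7 cells the arrays of a group spread widely for these RNAs, and 2 arrays lay lowest. Huh7 control array 1 lay below its group mean for 33 of the 42 members above background, by 0.256 on average, and Huh7 siRNA array 2 likewise for 33 of 42, by 0.266 on average (mean deviations -0.256 and -0.266). Over the 10 members of highest mean the deviations were -0.543 and -0.491. On the other side, Huh7 control array 3 lay above its group mean, by 0.206 over the 42 members, 0.424 over the 10 members of highest mean and 0.386 over the C/D rows. C/D small nucleolar RNA rows above background, of which there were 78, deviated by -0.452 on the control array and by -0.0904 on the siRNA array. The same 10 members had a median SD of 0.126 in Hep3B control, 0.189 in Hep3B siRNA, 0.560 in Huh7 control and 0.470 in Huh7 siRNA arrays. Over the 42 members above background the medians were 0.196, 0.220, 0.274 and 0.304 in the same order. Over all rows above background they were 0.0883, 0.115, 0.123 and 0.142. The fit shares 1 spread over the 4 groups. For the members, by these medians, that spread is wider than that of the Hep3B arrays and narrower than that of the Huh7 arrays, most of all for the 10 of highest mean. For the members named below, calls that change without the 2 lowest arrays are given both ways. Those 2 arrays were chosen after these low values were seen, so leaving them out tends to narrow the spread and lower p. Such p-values are therefore no independent support. For Huh7 control array 1 the description field gives Hep3B, whereas title and cell line give Huh7; over all rows its Pearson correlation ranged from 0.985 to 0.993 against Huh7 arrays and from 0.953 to 0.960 against those of Hep3B. What moved these arrays was not tested.

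**Figure D1:**
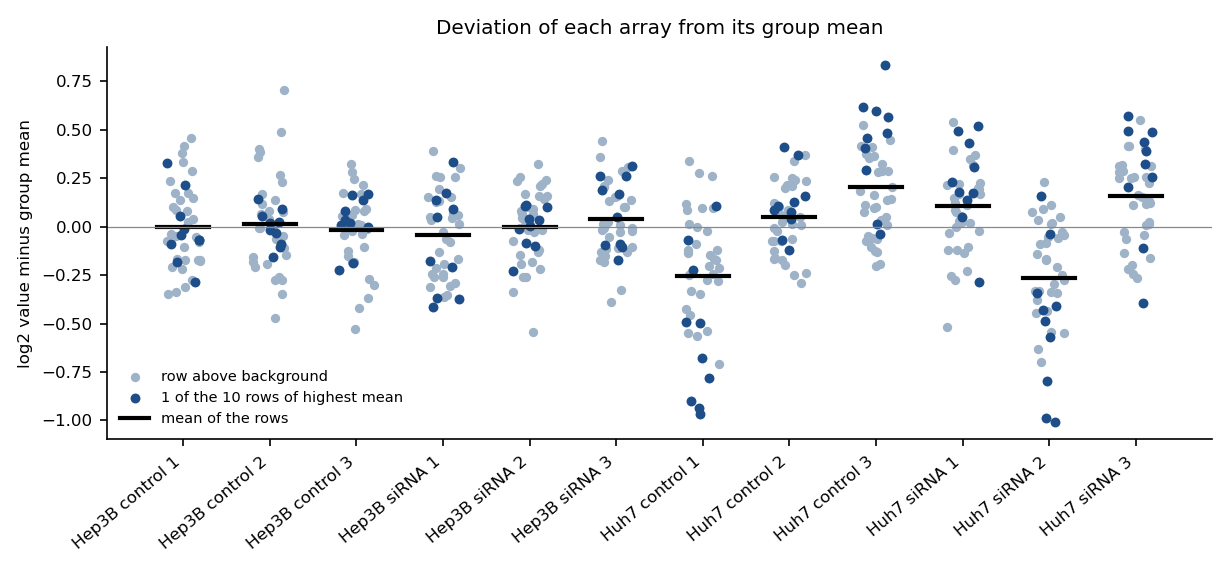
Deviation of each array from its own group mean, in log2 units, for the 42 members above background; dark points are the 10 rows of highest mean and bars the mean over the rows. Huh7 control array 1 and Huh7 siRNA array 2 lie low, at means of -0.256 and -0.266, and the 6 Hep3B arrays lie within 0.05 of 0.

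The first comparison asked how the levels of these guides differ between the lines without the siRNA. Huh7 control cells held far less SNORA23 and SNORA24 than Hep3B control cells and more SCARNA9L, SNORA31 and SNORA22. In total 10 member rows were called higher in Huh7, against 11.0% of all rows, and 11 lower, against 10.2% of all rows. These 21 called rows are 22.8% of the members, beside 21.2% of all rows. Among rows above background the shares were 35.7% of members and 57.5% of all rows. Of the 21, 15 were above background, 7 higher and 8 lower in Huh7.

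SNORA23, a ribosomal RNA guide, read 13.03, 12.88 and 13.21 on the Hep3B control arrays and 8.93, 10.02 and 10.73 on the Huh7 control arrays. Every Huh7 array was more than 2 units below every Hep3B array. The difference was -3.15 ± 0.45 (SE, n = 3 arrays per group, adjusted p = 0.000293 in limma), 8.86-fold lower in Huh7, and -2.67 without the 2 low Huh7 arrays (adjusted p = 1.39e-05). SNORA24, a guide for the small-subunit ribosomal RNA, read 9.78, 9.63 and 9.76 in Hep3B and 6.42, 6.96 and 7.38 in Huh7 control cells. The groups were again far apart, with a difference of -2.80 ± 0.24 (adjusted p = 5.06e-06), 6.97-fold lower in Huh7.

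SCARNA9L, a C/D-type copy of SCARNA9 on the X chromosome, gave the largest difference in the other direction. Its values were 6.17, 6.34 and 6.51 in Hep3B control cells and 8.52, 8.92 and 8.61 in Huh7 control cells, with no overlap and a difference of 2.35 ± 0.13 (adjusted p = 1.13e-07), 5.09-fold higher in Huh7. SNORA31, a ribosomal RNA guide, read 6.86, 7.14 and 6.72 in Hep3B and 8.87, 8.24 and 8.48 in Huh7, a difference of 1.62 ± 0.18 (adjusted p = 3.46e-05). SNORA22, also a ribosomal RNA guide, read 9.44, 9.49 and 9.59 in Hep3B and 10.02, 11.33 and 11.52 in Huh7. The Huh7 arrays were all higher but spread over 1.5 units, and the difference was 1.45 ± 0.36 (adjusted p = 0.0119). Without Huh7 control array 2 or 3 the SNORA22 call was lost (adjusted p = 0.0535 and 0.0519), and without the 2 low Huh7 arrays the difference was 1.92 (adjusted p = 0.000192).

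Of the other called rows above background, SNORA26 was higher in Huh7 by 1.0 ± 0.20 (adjusted p = 0.00358) and SCARNA17, a C/D-type Cajal body RNA, by 0.56 ± 0.14 (adjusted p = 0.0106), and these calls held in every alternative fit, a 2-fold minimum aside. SNORA75 (0.96 ± 0.29, adjusted p = 0.0345) and SNORA49 (0.72 ± 0.21, adjusted p = 0.0347) were also called higher, but each lost the call when 1 of 4 arrays was left out, with adjusted p up to 0.132 and 0.137; for SNORA75 those were Hep3B control arrays 1 and 2 and Huh7 control arrays 2 and 3, and for SNORA49 Hep3B control arrays 1 and 3 and Huh7 control arrays 2 and 3. On the 6 control arrays alone the adjusted p of SNORA49 was 0.0661. Lower in Huh7 were SNORA14B by -1.39 ± 0.21 (adjusted p = 0.000367), SNORA71D by -1.09 ± 0.11 (adjusted p = 2.44e-05), SCARNA8, an H/ACA-type Cajal body RNA, by -1.02 ± 0.15 (adjusted p = 0.000314), SCARNA27 by -0.95 ± 0.16 (adjusted p = 0.000894) and SNORA3B by -0.57 ± 0.14 (adjusted p = 0.0104), and all 5 calls held in the same fits. SCARNA7, of the C/D type, was lower by -0.72 ± 0.22 (adjusted p = 0.0344), a call that was lost when Hep3B control array 2 or 3 or Huh7 control array 1 or 2 was left out (adjusted p = 0.0987 to 0.122), with the deposited values (0.0537), with median centring (0.0968) and without the 2 low Huh7 arrays (0.138). SNORA14B, SCARNA8 and SCARNA27 had Huh7 means of 5.08, 5.41 and 4.63, below the background level, and SNORA75 had a Hep3B mean of 4.84, so that these differences in measured values may be smaller than the differences in RNA. The 6 called rows that were not above background, such as SNORA53 (0.94 ± 0.17, adjusted p = 0.00156), are values near the floor of the array.

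**Figure D2:**
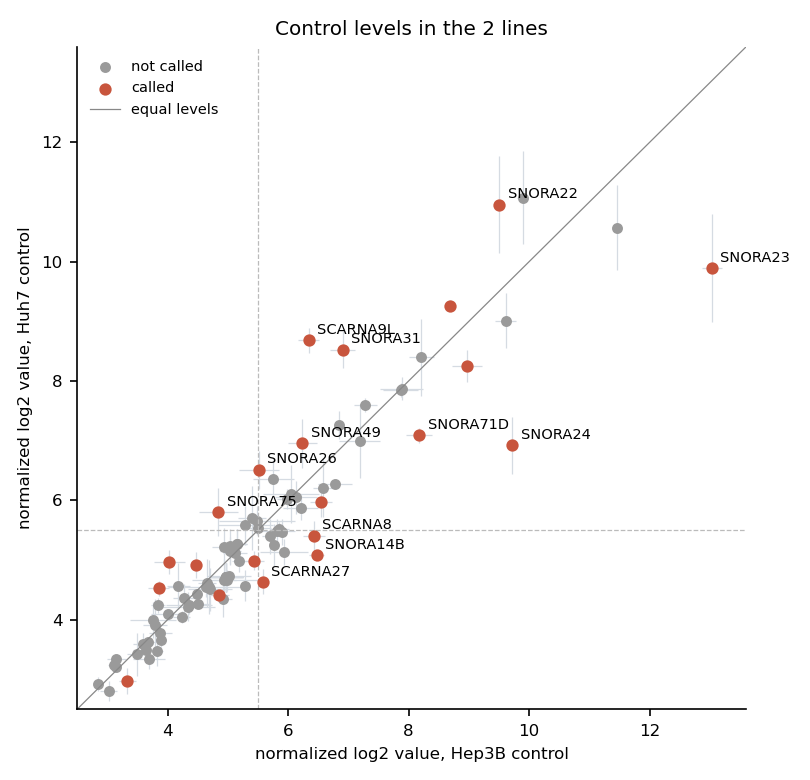
Mean normalized log2 value of each of the 92 rows in Hep3B control (horizontal axis) and Huh7 control arrays (vertical axis), with bars of 1 SD over 3 arrays, the background level as dashed lines and called rows in red. SNORA23 and SNORA24 lie below the line of equal levels by 3.15 and 2.80, and SCARNA9L above it by 2.35.

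Members of 1 family gave differing values between the lines. The 4 SNORA71 rows above background lie inside SNHG17, a small nucleolar RNA host gene, which was itself lower in Huh7 (log2 difference -0.81 ± 0.09, adjusted p = 3.02e-05). SNORA71D differed by -1.09, SNORA71A by -0.60 ± 0.22 (adjusted p = 0.0921), SNORA71B by -0.08 ± 0.19 (adjusted p = 0.861) and SNORA71C by -0.01 ± 0.28 (adjusted p = 0.990). Only the first was called, and the difference between the copies was not tested. SNORA14A, the relative of SNORA14B, differed by -0.33 ± 0.19 (adjusted p = 0.299). Copies of a family resemble each other in sequence, and how far their probes share signal was not tested.

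By position in the RefSeq annotation (assembly GRCh38.p14), 83 of the 85 symbols lie inside another gene, 71 of them inside exactly 1, while SCARNA2 and SNORA50C lie inside none. The annotation used gives no strand for the guides, so nesting on either strand was counted. For 26 members above background the 1 containing gene was also measured above background (22 genes, since SNHG17, CNOT1 and ATG16L1 hold several members). Between the control groups 21 of these 26 members differed in the same direction as the containing gene (80.8%), and Pearson's r over the 26 pairs was 0.75, Spearman's rho 0.70. This is a description across genes, in which pairs share arrays and some share a host, and it carries no p. Of the 9 members called, 8 had a containing gene that was called too, each in the direction of its member; of all 26 pairs, 23 had a called containing gene.

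SNORA23 (-3.15) lies inside IPO7, a nuclear import receptor, whose row differed by -2.07 ± 0.07 (adjusted p = 2.78e-09). SNORA24 (-2.80) lies inside the non-coding host SNHG8, which differed by -1.05 ± 0.13 (adjusted p = 9.55e-05). SCARNA9L (2.35) lies inside EIF1AX, a translation initiation factor, at 3.78 ± 0.09 (adjusted p = 3.36e-10), and SNORA31 (1.62) inside TPT1, the translationally controlled tumour protein, at 1.1 ± 0.08 (adjusted p = 1.30e-06). The other such pairs were SNORA26 with the non-coding RNA DANCR (1.22), SNORA75 with nucleolin, NCL (0.83), SNORA49 with the chromatin remodeller EP400 (0.43) and SCARNA8 with the augmin subunit HAUS6 (-1.02). Some pairs ran apart. SCARNA7 was lower (-0.72) while KPNA4, another import receptor, was at 0.04 ± 0.07 (adjusted p = 0.765). SNORA70G (-0.42 ± 0.21, adjusted p = 0.226) stood beside RAP1B at 1.25 ± 0.11 (adjusted p = 5.27e-06), and SCARNA12 (1.18 ± 0.41, adjusted p = 0.0691) beside prohibitin, PHB2, at -0.06 ± 0.07 (adjusted p = 0.649). SCARNA12 was called, at 1.63, without Huh7 control array 1 (adjusted p = 0.00935) and without both low arrays (adjusted p = 5.25e-06), and, at 1.18, without Huh7 siRNA array 2 (adjusted p = 0.0166) and when dim rows were left out of the fit (0.0432 and 0.0305). SCARNA5, at 0.61 ± 0.22 between the controls (adjusted p = 0.0714), was called without both low arrays (0.79, adjusted p = 0.0446).

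The start regions of the 4 containing genes with the largest member differences are shown because host genes of small nucleolar RNAs are known for a run of pyrimidines at the transcription start. Each sequence runs 5′ to 3′ on the strand of the gene, from 80 bases before to 20 bases after the RefSeq start (GRCh38.p14), and capitals mark CTTT in the last 45 bases.
IPO7, holding SNORA23, chr11:9384572-9384671, plus strand: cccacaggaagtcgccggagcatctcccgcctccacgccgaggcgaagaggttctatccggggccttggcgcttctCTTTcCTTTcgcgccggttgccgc
SNHG8, holding SNORA24, chr4:118278682-118278781, plus strand: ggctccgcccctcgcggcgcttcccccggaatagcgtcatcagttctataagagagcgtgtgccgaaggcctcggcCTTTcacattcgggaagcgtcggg
EIF1AX, holding SCARNA9L, chrX:20141819-20141918, minus strand: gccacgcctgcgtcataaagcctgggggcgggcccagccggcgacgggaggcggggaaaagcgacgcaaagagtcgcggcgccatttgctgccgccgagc
TPT1, holding SNORA31, chr13:45341164-45341263, minus strand: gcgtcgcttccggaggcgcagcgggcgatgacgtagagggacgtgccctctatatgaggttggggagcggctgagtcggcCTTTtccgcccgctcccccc
CTTT stood 2 times in that stretch of IPO7, 1 time each in SNHG8 and TPT1, and 0 times in EIF1AX. In the same 45 bases it was found on the gene's strand in 18 of the 73 RefSeq promoters of the 53 genes that are the only containing gene of a member (24.7%) and in 17.5% of all 35116 promoters. On the other strand it was found in 8.22% and 15.0%. A match is a description of letters in this window. IPO7 and SNHG8, lower in Huh7, and TPT1, higher there, all carried it.

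**Figure D3:**
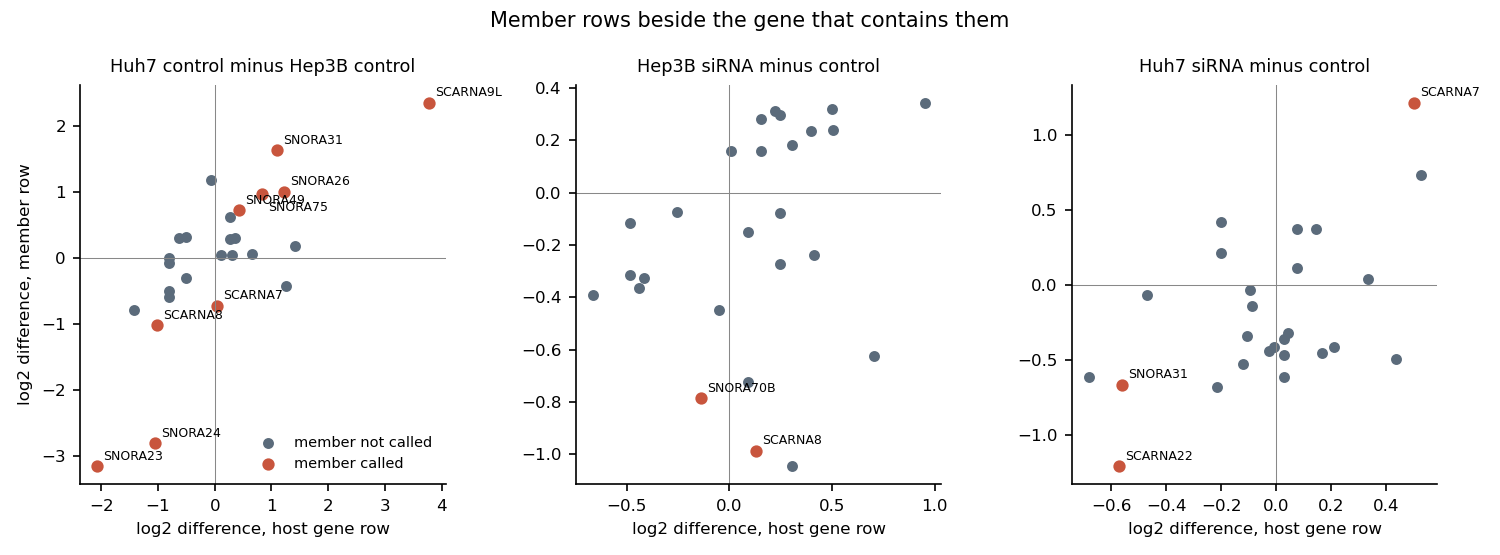
Log2 difference of the member row (vertical axis) against that of the containing gene's row (horizontal axis) for the 26 pairs above background, in 3 comparisons; red marks members that were called. In the control comparison 21 of 26 points share a sign, in Hep3B siRNA against control 18 of 26 and in Huh7 siRNA against control 17 of 26.

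The second comparison asked which guides differ with the siRNA in Hep3B cells. SNORA22, SCARNA8 and SNORA70B fell, by between 1.7-fold and 2.5-fold in measured values, and most members were not called. Of the 92 rows 3 were called lower, against 4.71% of all rows, and 1 higher, against 5.76% of all rows; 4.35% of members were called in all, beside 10.5% of all rows. Among rows above background the shares were 7.14% of members and 32.4% of all rows. The median SE was 0.210 for these members and 0.112 for all rows above background, here, in Huh7 and between the controls. A change of equal size is therefore less readily called in a member, and a lower share called does not show smaller changes. The median change over the 92 rows was -0.09, beside -0.01 over all rows. Counting rows whose 3 siRNA arrays all lay on 1 side of the 3 control arrays, 14 members were lower, against 13.7% of all rows, and 4 were higher, against 13.5%.

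SCARNA8, which guides pseudouridylation of a spliceosomal RNA, read 6.32, 6.32 and 6.64 on control arrays and 5.19, 5.68 and 5.45 on siRNA arrays. The groups did not overlap. It fell by 0.99 ± 0.15 on the log2 scale (log2 change -0.99, adjusted p = 0.00126), and the call held in every alternative fit, a 2-fold minimum aside; the siRNA mean of 5.44 lay just below background, so the fall may be understated. HAUS6, which contains it, was at 0.13 ± 0.08 (adjusted p = 0.455). SNORA22 read 9.44, 9.49 and 9.59 with control RNA and 7.80, 8.28 and 8.43 with siRNA. All siRNA arrays were at least 1 unit lower, and the log2 change was -1.34 ± 0.36 (adjusted p = 0.0356). That call was lost when any 1 of the 6 Hep3B arrays was left out (adjusted p = 0.0591 to 0.121), with the deposited values (0.0581) and with median centring (0.0771). Without the 2 low Huh7 arrays, which left the Hep3B values as they were, its adjusted p was 0.00249. SNORA22 lies inside the pseudogene CCT6P1 and the non-coding gene LINC03006.

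SNORA70B, of a family with many copies, read 7.07, 6.50 and 6.77 with control RNA and 6.12, 5.98 and 5.88 with siRNA. It fell by 0.78 ± 0.18 on the log2 scale (log2 change -0.78, adjusted p = 0.0151), without overlap, and the call was lost without Hep3B control array 1 or Hep3B siRNA array 2 or 3 (adjusted p = 0.0508 to 0.0642). In Huh7 SNORA70B was at -0.45 ± 0.18 with overlapping arrays (adjusted p = 0.179), and it was called in 1 of 22 alternative fits (0.0211). In Hep3B USP34, the ubiquitin protease gene that contains SNORA70B, was at -0.14 ± 0.06 (adjusted p = 0.213). The only row called higher, SNORA58, went from a mean of 3.59 to one of 4.06, both below background, and lost the call without any of 7 arrays, which were all 3 Hep3B control arrays, Hep3B siRNA arrays 1 and 2, Huh7 control array 2 and Huh7 siRNA array 2 (adjusted p = 0.0585 to 0.156), and without both low Huh7 arrays (0.0611).

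SNORA23 and SNORA48 differed by about 1 unit in Hep3B without being called. SNORA23 read 11.82, 11.98 and 12.18 on siRNA arrays beside the control values given above, a log2 difference of -1.04 ± 0.45 (95% interval -2.04 to -0.05, adjusted p = 0.214). SNORA48, a ribosomal RNA guide inside the translation factor gene EIF4A1 and its read-through partner, read 11.40, 11.53 and 11.48 with control RNA and 10.12, 10.63 and 10.85 with siRNA. All its siRNA arrays were lower, with a log2 difference of -0.94 ± 0.38 (95% interval -1.77 to -0.10, adjusted p = 0.177). Fitted on the 6 Hep3B arrays alone, both were called (adjusted p = 0.00259 for SNORA23 and 0.0196 for SNORA48), and both were called without the 2 low Huh7 arrays (0.00589 and 0.0125). Leaving out those 2 arrays changed no Hep3B value, only the spread shared by the fit. SNORA49 behaved likewise, with -0.72 ± 0.21 (adjusted p = 0.0580) in the fit over 12 arrays and an adjusted p of 0.0196 on the Hep3B arrays alone. IPO7, which contains SNORA23, rose in Hep3B (log2 change 0.30 ± 0.07, adjusted p = 0.0145), a call lost in 3 of 22 alternative fits (adjusted p up to 0.0670).

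**Figure D4:**
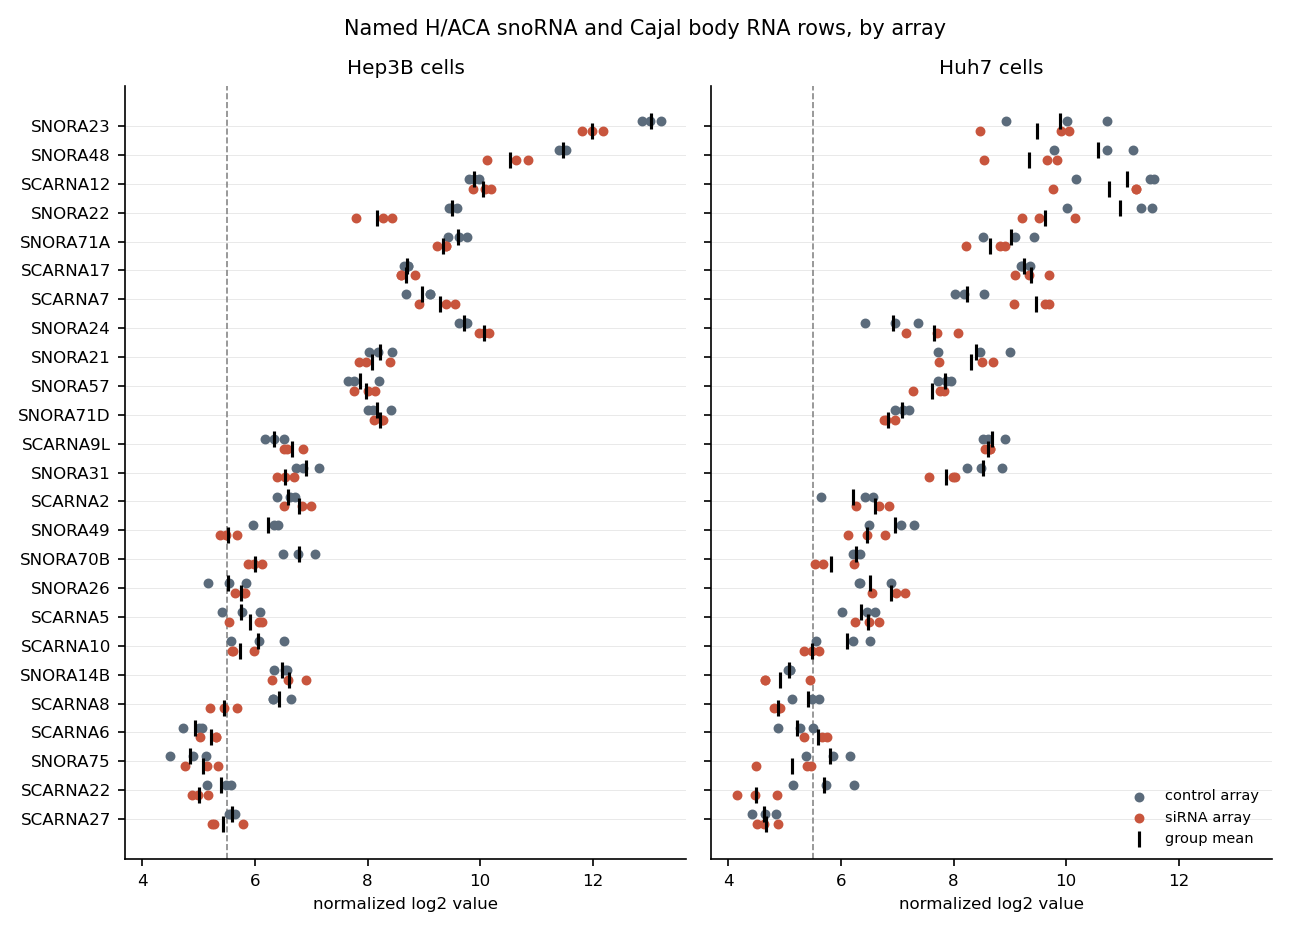
Normalized log2 value on each array for the 25 named members, Hep3B left and Huh7 right, with control arrays in grey, siRNA arrays in red, group means as black ticks and the background level of 5.50 dashed. The Hep3B values of SNORA22, SNORA23 and SNORA48 separate by treatment, while in Huh7 the arrays of each group spread over more than 0.9 units for the same rows.

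The third comparison asked the same of Huh7 cells. SCARNA7 rose and SCARNA22, SNORA22 and SNORA31 fell. Among the members 1 was called higher, against 4.52% of all rows, and 5 lower, against 3.49% of all rows; in all 6.52% of members were called and 8.01% of all rows, and among rows above background 9.52% of members and 25.9% of all rows. The median change was -0.07 over the members and -0.01 over all rows. Fully separated arrays were seen for 6 members higher, against 11.5% of all rows, and for 9 lower, against 11.5% as well.

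SCARNA7, a C/D-type guide for spliceosomal RNA, read 8.03, 8.18 and 8.54 with control RNA and 9.70, 9.62 and 9.07 with siRNA. Each siRNA array was higher than each control array, and the rise was 1.22 ± 0.22 (adjusted p = 0.00492), 2.32-fold. Without the 2 low Huh7 arrays it was 1.02 (adjusted p = 0.0688), whereas leaving out any 1 array kept the call. KPNA4, which contains SCARNA7, rose by 0.50 ± 0.07 in Huh7 (adjusted p = 0.00135) and by 0.50 ± 0.07 in Hep3B (adjusted p = 0.000952). In Hep3B SCARNA7 itself read 8.69, 9.12 and 9.11 with control RNA and 8.92, 9.40 and 9.55 with siRNA, overlapping groups with a log2 difference of 0.32 ± 0.22 (adjusted p = 0.484).

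SCARNA22, of the H/ACA type, read 5.15, 5.73 and 6.23 with control RNA and 4.86, 4.15 and 4.47 with siRNA in Huh7. The fall of 1.21 ± 0.25 on the log2 scale (log2 change -1.21, adjusted p = 0.0121) ended below background at a mean of 4.49, so it may be understated. It held with each array left out in turn, and on the 6 Huh7 arrays alone the adjusted p was 0.0813. NSD2, the histone methyltransferase gene that contains it, fell by 0.57 ± 0.07 in Huh7 (log2 change -0.57, adjusted p = 0.000400) and by 0.67 ± 0.07 in Hep3B (log2 change -0.67, adjusted p = 9.37e-05). SNORA31 read 8.87, 8.24 and 8.48 with control RNA and 8.03, 7.57 and 7.99 with siRNA. Its fall of 0.67 ± 0.18 (log2 change -0.67, adjusted p = 0.0438) went with one of 0.56 ± 0.08 in TPT1 (log2 change -0.56, adjusted p = 0.00143). In Hep3B, where TPT1 also fell (log2 change -0.44 ± 0.08, adjusted p = 0.00456), SNORA31 was at -0.36 ± 0.18 without overlap and was not called (adjusted p = 0.283). The SNORA31 call was lost when any array other than Hep3B control array 2 or Huh7 control array 2 was left out (adjusted p = 0.0525 to 0.144), as with the deposited values (0.0694), median centring (0.0880) and the 6 Huh7 arrays alone (0.136), and without the 2 low Huh7 arrays the change was -0.35 (adjusted p = 0.297).

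SNORA22 was the 1 member called in both lines, among 9 called in either. In Huh7 it read 10.02, 11.33 and 11.52 with control RNA and 10.15, 9.22 and 9.52 with siRNA, so that control array 1 overlapped the siRNA arrays. The log2 change was -1.33 ± 0.36 (adjusted p = 0.0450), close to that in Hep3B. Leaving out any 1 array other than Huh7 control array 1 or Huh7 siRNA array 1 lost the call (adjusted p = 0.0507 to 0.158), as did the deposited values (0.0655), median centring (0.0832), array weights (0.108) and the 6 Huh7 arrays alone (0.167), whereas without the 2 low Huh7 arrays the change was -1.59 (adjusted p = 0.00599). SNORA48, at 9.79, 10.73 and 11.19 with control RNA and 9.65, 8.55 and 9.84 with siRNA, overlapped between groups and was not called (-1.22 ± 0.38, adjusted p = 0.0827); without the same 2 arrays the change was -1.21 (adjusted p = 0.0166). The other called rows, SNORA12 (-0.62 ± 0.14, adjusted p = 0.0218) and SNORA11 (-0.35 ± 0.10, adjusted p = 0.0473), were below background in all groups. The SNORA12 call was lost without Huh7 control array 2 or 3 or Huh7 siRNA array 1 or 2 (adjusted p up to 0.0866), and the SNORA11 call without any array other than Huh7 control array 2 (up to 0.160) and without both low arrays (0.233).

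**Figure D5:**
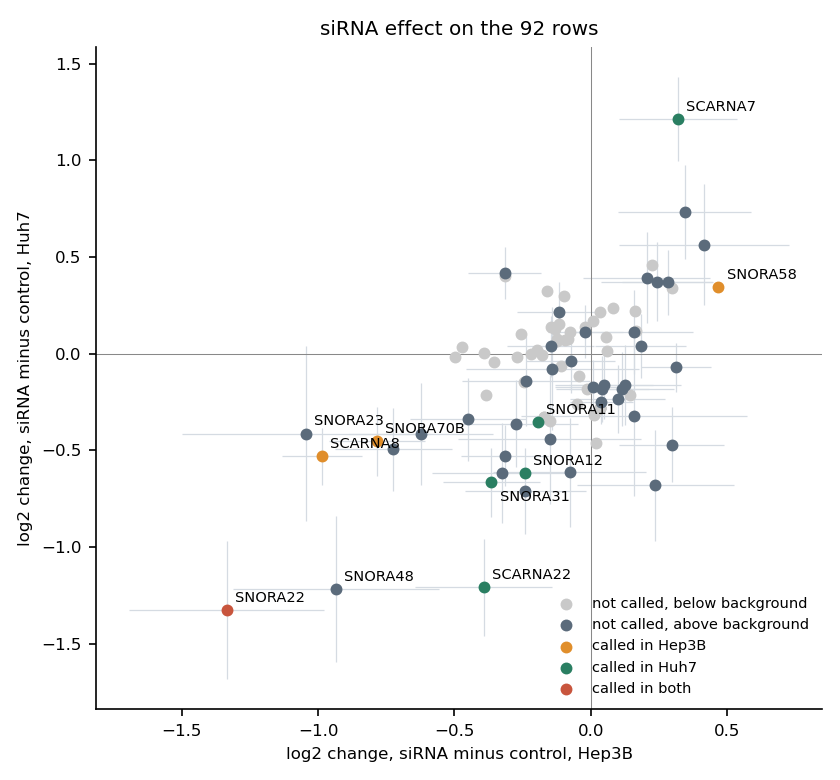
Log2 change with the siRNA in Hep3B (horizontal axis) and Huh7 (vertical axis) for the 92 rows, with bars of 1 SE on rows above background and colours for the line in which a row was called. SNORA22 lies at -1.34 and -1.33, and SCARNA7 at 0.32 and 1.22.

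The fourth comparison set the siRNA effect in Huh7 against that in Hep3B. In that test 0 of the 92 rows were called, against 1.91% of all rows, and 7 had an unadjusted p under 0.05. The effects on SNORA22 differed by 0.01 (95% interval -1.1 to 1.12), an interval wide enough to hold a change of 2-fold in either direction. For SCARNA7 the difference was 0.90 (0.22 to 1.57, adjusted p = 0.217), for SCARNA22 -0.82 (-1.60 to -0.03, adjusted p = 0.371) and for SCARNA8 0.46 (-0.01 to 0.92, adjusted p = 0.406). None of these passed the threshold, so a call in 1 line is not shown to be particular to it. SNORA50A, inside the deadenylase scaffold gene CNOT1, read 7.32, 7.08 and 7.45 with control RNA and 6.71, 7.07 and 7.13 with siRNA in Hep3B, and 7.47, 7.69 and 7.65 and then 8.13, 8.07 and 7.86 in Huh7. Its effects differed by 0.74 and passed the threshold only when dim rows were left out of the fit (adjusted p = 0.0280 over rows above background); it was singled out after its values were seen.

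With the siRNA, in Hep3B 18 of the 26 members shared the sign of the containing gene's change (r = 0.29, rho = 0.43), and in Huh7 17 of 26 (r = 0.55, rho = 0.46). The 3 comparisons share control arrays, and the difference between these figures was not tested. In Hep3B 13 members had a called containing gene and 2 members were called, with 0 pairs called in both rows. In Huh7 3 pairs were called in both rows, SCARNA7 with KPNA4, SCARNA22 with NSD2 and SNORA31 with TPT1, each in the same direction. SNORA24 read 10.15, 10.07 and 9.97 in Hep3B and 7.70, 7.16 and 8.09 in Huh7 siRNA cells, with log2 differences of 0.34 ± 0.24 (adjusted p = 0.508) and 0.73 ± 0.24 (adjusted p = 0.107); on the 6 Hep3B arrays alone SNORA24 was called (adjusted p = 0.0336), and in Huh7 it was called without Huh7 control array 3 (0.96, adjusted p = 0.0410), without Huh7 siRNA array 2 (0.98, adjusted p = 0.0297), without both low arrays (0.73, adjusted p = 0.0367) and over rows above background (0.0403). Its host SNHG8 rose by 0.95 ± 0.13 (adjusted p = 0.000717) and 0.53 ± 0.13 (adjusted p = 0.0315). The Huh7 call of SNHG8 was lost in 7 of 22 alternative fits (adjusted p up to 0.111).

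The 11 Cajal body RNAs above background did not move together. By box type, SCARNA2, SCARNA7, SCARNA9L and SCARNA17 are of the C/D type, SCARNA5, SCARNA6, SCARNA10 and SCARNA12 carry both kinds of box, and SCARNA8 and SCARNA22 are of the H/ACA type. Of the C/D type, SCARNA7 was the only row called with the siRNA, and SCARNA17 was at -0.02 ± 0.14 in Hep3B (adjusted p = 0.967) and 0.11 ± 0.14 in Huh7 (adjusted p = 0.743). SCARNA2 was at 0.20 ± 0.23 and 0.39 ± 0.23 (adjusted p = 0.724 and 0.419). Of those with both boxes 0 were called with the siRNA: SCARNA12 was at 0.16 ± 0.41 and -0.32 ± 0.41, SCARNA10 at -0.32 ± 0.26 and -0.62 ± 0.26, SCARNA5 at 0.16 ± 0.22 and 0.11 ± 0.22, and SCARNA6 at 0.28 ± 0.17 and 0.37 ± 0.17 in Hep3B and Huh7. The wide error of SCARNA12 comes with values of 10.18, 11.49 and 11.56 on the Huh7 control and 11.25, 9.77 and 11.25 on the Huh7 siRNA arrays, where control array 1 and siRNA array 2 are the low ones. The H/ACA-type rows were SCARNA8 and SCARNA22. SCARNA8 was at -0.99 in Hep3B and -0.53 ± 0.15 in Huh7 (adjusted p = 0.0531), with no overlap between treatments in either line. In Huh7 it was called in 8 of 22 alternative fits (adjusted p from 0.0191 to 0.172), among them the fit without both low arrays (-0.69, adjusted p = 0.0491). SCARNA22 was at -0.39 ± 0.25 in Hep3B (adjusted p = 0.448) and -1.21 in Huh7. In the main fit each was called in 1 line. SCARNA27, whose box type was not assigned here, was at -0.15 ± 0.16 and 0.04 ± 0.16 (adjusted p = 0.702 and 0.942).

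Of the remaining ribosomal RNA guides among the 10 members of highest mean, none was called with the siRNA. SNORA71A was at -0.27 ± 0.22 in Hep3B (adjusted p = 0.586) and -0.36 ± 0.22 in Huh7 (adjusted p = 0.449), SNORA21 at -0.14 ± 0.32 and -0.08 ± 0.32 (adjusted p = 0.878 and 0.940), and SNORA57 at 0.10 ± 0.18 and -0.23 ± 0.18 (adjusted p = 0.842 and 0.548). For SNORA71A the 95% intervals ran from -0.77 to 0.22 and from -0.86 to 0.13, so that falls of up to these sizes were not excluded. Over all 92 rows the changes ran from -1.34 to 0.47 in Hep3B and from -1.33 to 1.22 in Huh7. C/D small nucleolar RNAs are the sister class that guides ribose methylation. Of their 188 rows 17 were called lower and 11 higher in Hep3B, beside 4.71% and 5.76% of all rows. In Huh7 11 were called lower and 6 higher, beside 3.49% and 4.52% of all rows. In each line 5 of the higher rows were copies of U3. Among rows above background 28.2% of C/D rows and 7.14% of members were called in Hep3B, beside 32.4% of all rows. In Huh7 these shares were 21.8%, 9.52% and 25.9%. The difference between the classes was not tested.

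The genes of the proteins that build and process these guides were read on the same arrays. The arrays read RNA and not protein, so each protein named below stands for the RNA of its gene. The counts that follow stand beside 10.5% of all rows called in Hep3B and 8.01% in Huh7, or 32.4% and 25.9% of rows above background, which most listed genes were. Of the H/ACA core proteins 3 of 4 had a row of their own (dyskerin's gene, DKC1, had none), and 0 were called with the siRNA in either line. NOP10, a small core subunit, was at -0.15 in Hep3B and in Huh7, and GAR1, another, at 0.02 and -0.08. Among 9 assembly factors 1 was called, the H/ACA and C/D assembly protein NUFIP1, which rose by 0.45 ± 0.12 in Hep3B (adjusted p = 0.0307). The NUFIP1 call was lost in 5 of 22 alternative fits (adjusted p up to 0.123). Of 13 measured genes of Cajal body proteins 4 were called higher in Hep3B, and 2 higher and 1 lower in Huh7. The nucleolar and Cajal body phosphoprotein NOLC1, which binds dyskerin, rose from a mean of 7.21 to 9.36 in Hep3B (2.14 ± 0.09, adjusted p = 3.55e-07) and from 7.14 to 8.98 in Huh7 (1.84 ± 0.09, adjusted p = 2.36e-06). Its arrays did not overlap between treatments, and TCOF1, a relative of NOLC1, rose by 0.48 ± 0.06 and 0.32 ± 0.06 (adjusted p = 0.000449 and 0.00741). SART3, a splicing recycling factor, rose by 0.65 ± 0.08 in Hep3B (adjusted p = 0.000468), GEMIN5, of the SMN complex, by 0.49 ± 0.06 in Hep3B (adjusted p = 0.000346), and NPAT, a histone gene activator, fell by 0.39 ± 0.08 in Huh7 (log2 change -0.39, adjusted p = 0.0143). The NPAT call was lost in 4 of 22 alternative fits (adjusted p up to 0.146).

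Of 21 measured processing and decay factors 7 were called higher and 2 lower in Hep3B, and 6 higher and 3 lower in Huh7. DBR1, the debranching enzyme that opens the intron lariats in which most of these guides lie, went from arrays between 10.95 and 11.03 to arrays between 9.05 and 9.07 in Hep3B. In Huh7 it went from 9.01 to 9.22 down to 8.21 to 8.58. Both falls passed the test (log2 change -1.92 ± 0.10, adjusted p = 1.37e-06, and -0.68 ± 0.10, adjusted p = 0.00138). XRN2, a nuclear exonuclease, fell by 0.44 ± 0.07 in Hep3B (log2 change -0.44, adjusted p = 0.00114) and by 0.40 ± 0.07 in Huh7 (log2 change -0.40, adjusted p = 0.00278). ZFC3H1, part of the nuclear exosome targeting machinery, rose by 0.66 ± 0.09 and 0.64 ± 0.09 (adjusted p = 0.000738 and 0.00122), and the terminal nucleotidyltransferase TENT4B by 0.55 ± 0.10 and 0.77 ± 0.10 (adjusted p = 0.00350 and 0.000562). Whether these changes bear on the guides was not tested.

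TERC, the telomerase RNA, which carries an H/ACA domain, was at 0.27 ± 0.13 with the siRNA in Hep3B (adjusted p = 0.265) and rose by 0.67 ± 0.13 in Huh7 (adjusted p = 0.00834), and it was lower in Huh7 than in Hep3B control cells (log2 difference -1.54 ± 0.13, adjusted p = 3.81e-06). The call of its rise in Huh7 was lost in 2 of 22 alternative fits (adjusted p up to 0.0645). Of the 12 protein-only pseudouridine synthases, which need no guide RNA, 3 were called higher (PUS3, PUS7L and TRUB2) and 1 lower (PUS7, log2 change -0.40 ± 0.08, adjusted p = 0.00735) in Hep3B and 0 in Huh7. The calls of PUS3 and TRUB2 were each lost in 5 of 22 alternative fits (adjusted p up to 0.122 and 0.111). That of PUS7 was lost in 1 (0.0878). Of the 3 genes of C/D core proteins measured, NOP58 was called higher in Hep3B (0.47 ± 0.12, adjusted p = 0.0327) and 0 in Huh7. The NOP58 call was lost in 6 of 22 alternative fits (adjusted p up to 0.115).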

How the data were processed

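The deposited table holds 1 column of log2 values per array, 12 in all; per the submitters' processing notes the authors used Agilent Feature Extraction 10.7.1.1, while the labels also name an Affymetrix labelling protocol and the row names are Affymetrix transcript clusters. How probes were summarised is not given in the sources used here. Of 70523 rows, 2995 that are no transcript clusters (controls, exons, junctions, numbered entries) were left out. Array medians differed by 0.124, over the limit of 0.1, so arrays were quantile normalized.

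Limma 3.58.1 in R 4.3.3 fitted 1 mean per group over 12 arrays (8 residual degrees of freedom), using eBayes with a mean-variance trend and two-sided p-values adjusted by Benjamini-Hochberg over 67528 rows in each of 4 comparisons. The procedure was run on simulated data with independent noise of the same spread in every group. That simulation does not cover shifts shared by many rows of an array or a spread that differs between the lines. Figures used matplotlib 3.10.9. The number of arrays limits the precision.

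The members, gene lists and rules were chosen with earlier results of these data known. Named were up to 12 called members each way per siRNA comparison and 6 each way otherwise, with groups apart and above background, the 10 members of highest mean, every SCARNA row above background, and up to 4 called genes per list; SNORA3B, SNORA50A, the other SNORA71 and SNORA14 copies, rows called below background and further host pairs were added after their values were seen. Host genes were meant to be matched by strand, but no strand was at hand. Nothing but the shared replicate number says that samples are paired, so these numbers were not used as pairs in the main fit. Same-numbered arrays correlated in their deviations at r from -0.102 to 0.0719. These values cannot decide on pairing, because they cover all rows, of which 25.4% were above background, and arrays of other numbers were not correlated for comparison. Alternatives were the deposited values, median centring, filters on dim rows, 1 row per symbol, a replicate block, array weights, no trend, only the arrays compared, a 2-fold minimum, each array left out in turn and, chosen after seeing the data, Huh7 control array 1 and Huh7 siRNA array 2 left out together.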

Additional observations from a re-analysis of the deposited data

Results flagged for a closer look

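No member's siRNA effect differed between the lines by the test of the difference. Among listed genes other than cell type markers and genes that contain a named member 7 did, beside 1.91% of all rows and 6.39% of rows above background. By list these were 3 of 13 measured Cajal body genes, 1 of 21 processing and decay genes and 1 of 12 pseudouridine synthase genes. EIF1AX and NCL were containing genes. In the other lists, of 3, 9, 3 and 2 measured genes, 0 were called. No share was computed for the 7 together, so no excess over these percentages is claimed. Of the 9 measured liver markers, 1 was called with a positive difference and 2 with a negative one. DBR1 fell less in Huh7 than in Hep3B (difference Huh7 minus Hep3B 1.24 ± 0.14, adjusted p = 0.00167). The difference was -0.52 ± 0.09 for GEMIN5 (adjusted p = 0.0125), -0.54 ± 0.12 for SART3 (adjusted p = 0.0482), -0.54 ± 0.12 for NPAT (adjusted p = 0.0458) and -0.60 ± 0.13 for PUS7L (adjusted p = 0.0379). For EIF1AX, which contains SCARNA9L, it was -0.69 ± 0.13 (adjusted p = 0.0219), and for NCL, which contains SNORA75, -0.61 ± 0.09 (adjusted p = 0.00636). Over 21 alternatives the call was lost in 16 for NPAT (adjusted p up to 0.149), 15 for PUS7L (0.134), 14 for SART3 (0.176), 7 for EIF1AX (0.0628), 2 for GEMIN5 (0.0807) and 0 for DBR1 and NCL. For USP34, which contains SNORA70B, the arrays were lower with the siRNA in Hep3B (-0.14) and higher in Huh7 (0.17) without overlap, but the difference of 0.31 ± 0.09 did not pass (adjusted p = 0.118). No formal rule for outlying arrays was applied to groups of 3 arrays. Huh7 control array 1 and Huh7 siRNA array 2 were singled out by their deviations from the group mean, as described above.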

How the results depend on the processing

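The counts of called members were small and moved with the setting. In Hep3B the count of 4 became 2 with the deposited values, 2 with a replicate block, 8 with only the arrays compared, 7 without Huh7 control array 1 and Huh7 siRNA array 2, and 1 with a 2-fold minimum, and it ran from 1 to 5 as each array was left out. In Huh7 the count of 6 became 3 with median centring, 10 over rows above background, 1 with only the arrays compared and 3 with a 2-fold minimum, and ran from 3 to 6 as each array was left out. Between the control groups 21 became 8 with a 2-fold minimum and ran from 17 to 24. For the difference between the lines 0 became 1, SNORA50A, over rows above the median of all rows and over rows above background. The split of higher and lower calls was 0 and 2 in Hep3B with the deposited values (1 and 3 as reported) and 1 and 2 in Huh7 with median centring (1 and 5 as reported). The replicate block gave 5 calls in Huh7, 21 between controls and 0 for the difference. Of the values of named genes under alternatives, 276 lost a call, 75 gained one, 4567 did neither and 0 reversed. With the block the calls of SNORA22 in Hep3B (adjusted p = 0.0514) and Huh7 (0.0634) and of SNORA49 (0.0596) and SNORA75 (0.0538) between controls were lost. So were those of SNORA58 in Hep3B (0.0734) and SNORA11 in Huh7 (0.0865), both below background. The causes were not tested. Of the members 50 were not above background, where a signal near the floor of the array limits what can be measured.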
